A study of Mus musculus with 30 samples.

Results

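Complex I, or NADH:ubiquinone oxidoreductase, is the large enzyme through which NADH enters the mitochondrial respiratory chain, and most of its nuclear genes carry symbols beginning Nduf. The genes described here are the 46 protein-coding genes with such a symbol in the GENCODE M21 annotation that reached at least 1 TPM (a transcript level scaled for gene length and library size) in at least 3 libraries, out of 29861 genes in the deposited table. All 46 protein-coding Nduf genes of the table met that rule, and each was at or above 1 TPM in all 30 libraries. They comprised 36 complex I subunits, 8 assembly factors (Ndufaf1 to Ndufaf8) and 2 genes, Ndufa4 and Ndufa4l2, whose products are not counted as complex I subunits.

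The cells were primary tail fibroblasts of 1 line, CCG-HTA-1, from UMHet3 mice, an outbred four-way cross, used at passage 4 and kept at ambient oxygen in DMEM rich in glucose and free of pyruvate. Cultures were exposed for 48 h to 1 of 8 compounds, with 3 libraries each, or to the solvent DMSO, with 6 libraries. The compounds were Antimycin A, an inhibitor of respiratory complex III; Dihydrorotenone, a rotenone-type inhibitor of complex I; Diphenyleneiodonium Cl, an inhibitor of flavoenzymes; Cardamonin, a plant chalcone; BerberineA; Clofilium tosylate, which blocks potassium channels; AEG 3482; and Podofilox, an inhibitor of microtubule assembly. Doses were not given in the sources used here. Donor mice were labelled as 5 to 8 weeks old, except for 8 to 11 weeks on Dihydrorotenone replicate 1. Since all libraries came from 1 line, the p-values measure the spread between these libraries, which may be technical, and not between mice. Library numbers ran consecutively within each group, so any batch that follows them cannot be told apart from the treatment.

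Complex I is L-shaped, with a matrix arm that oxidises NADH and passes electrons along iron-sulfur clusters to ubiquinone, and a membrane arm that pumps protons. A small set of core subunits, encoded in part by mitochondrial DNA, does the chemistry, and accessory subunits of nuclear origin surround it. Assembly factors help to build the modules and are absent from the finished enzyme. In cultured fibroblasts growing in high glucose, much of the ATP can be made by glycolysis.

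The libraries differed in composition between some groups. The listed genes summed to 927024 to 937134 TPM per library, and 12569 to 12700 genes were at 1 TPM or more in DMSO, against 12229 to 12302 in Cardamonin and 12310 to 12366 in AEG 3482. The 20 genes with the highest levels held 18.3% to 19.3% of the listed total in DMSO, 17.3% to 17.7% in Cardamonin, 18.6% to 19.2% in Podofilox and 14.9% to 15.1% in AEG 3482. Sequencing depth is unknown, since TPM values do not retain it. Correlations within groups ran from 0.986 to 0.993 on the log2(TPM + 1) scale, and no pair of libraries was identical. The 10 fibroblast markers summed to 9759 to 11280 TPM in DMSO, 10770 to 12150 in AEG 3482 and 3806 to 4819 in Cardamonin. They summed to 7682 to 8458 TPM in Antimycin A, 8341 to 9040 in Clofilium tosylate, 9027 to 9642 in BerberineA, 9139 to 9635 in Diphenyleneiodonium Cl and 9192 to 9362 in Podofilox, all below DMSO, and 8772 to 9849 in Dihydrorotenone. The markers Krt5 (keratinocyte), Myod1 (muscle) and Plin1 (adipocyte) were listed at 0 in every library. The other keratinocyte, muscle and adipocyte markers were not all 0 but stayed below 1 TPM, with Des (muscle) the highest at 0.786. Endothelial markers reached at most 0.804 TPM (Pecam1) and cartilage markers 1.56 TPM (Col2a1). The 4 leukocyte and macrophage markers summed to 24.4 to 29.5 TPM in DMSO and 28.6 to 44.9 in Cardamonin. Over all libraries Cd68 reached 41.4 TPM, while Adgre1 reached at most 12.1, Csf1r 3.46 and Ptprc 0.876. Only a Cardamonin sum is large enough to hold that Cd68 value, so Cd68 gave most of the highest Cardamonin sum. Sums of the 4 markers were 17.4 to 19.5 TPM in Antimycin A, 18.8 to 20.5 in AEG 3482 and 20.14 to 21.25 in Clofilium tosylate. In Podofilox they were 20.47 to 22.45 TPM and in Dihydrorotenone 21.7 to 23.4. Those groups lay wholly below DMSO, while Cardamonin, BerberineA and Diphenyleneiodonium Cl overlapped it. The 3 Schwann cell and melanocyte markers, of which Mitf gave nearly all, summed to 27.9 to 35.3 TPM in DMSO, 40.9 to 50.6 in Podofilox, 39.1 to 44.7 in AEG 3482, 36.4 to 39.7 in Antimycin A and 36.5 to 38.3 in Diphenyleneiodonium Cl. In these bulk samples, fewer cells of a type and less RNA per cell cannot be told apart, and the part of the marker differences in the results was not tested.

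In the DMSO cultures the subunits were well expressed and the assembly factors were lower. Mean levels of the 36 subunits ran from 18.9 TPM for Ndufa11 to 309 TPM for Ndufa7, with a median of 102 TPM, against a median of 16.1 TPM over all 13644 tested genes. Ndufa7 lies in the matrix arm, and its 6 DMSO libraries held 287 to 332 (median 309.8) TPM. Ndufa11, a membrane-arm subunit, held 15.9 to 23.1 (median 18.7) TPM. Among the 7 core subunits Ndufs8, an iron-sulfur subunit, was the lowest at 43.8 ± 4.49 TPM (SD, n = 6). The 8 assembly factors ran from 5.89 TPM for Ndufaf6 to 45.9 TPM for Ndufaf8, with a median of 18.8 TPM. The core subunits varied little between DMSO libraries, with a median coefficient of variation of 5.20%, against 7.07% over all subunits, 10.8% over assembly factors and 9.38% over all tested genes. Ndufa4 and Ndufa4l2 varied most among the 46 genes, at 21.2% and 18.8%. All of these levels are per length on the TPM scale.

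**Figure D1:**
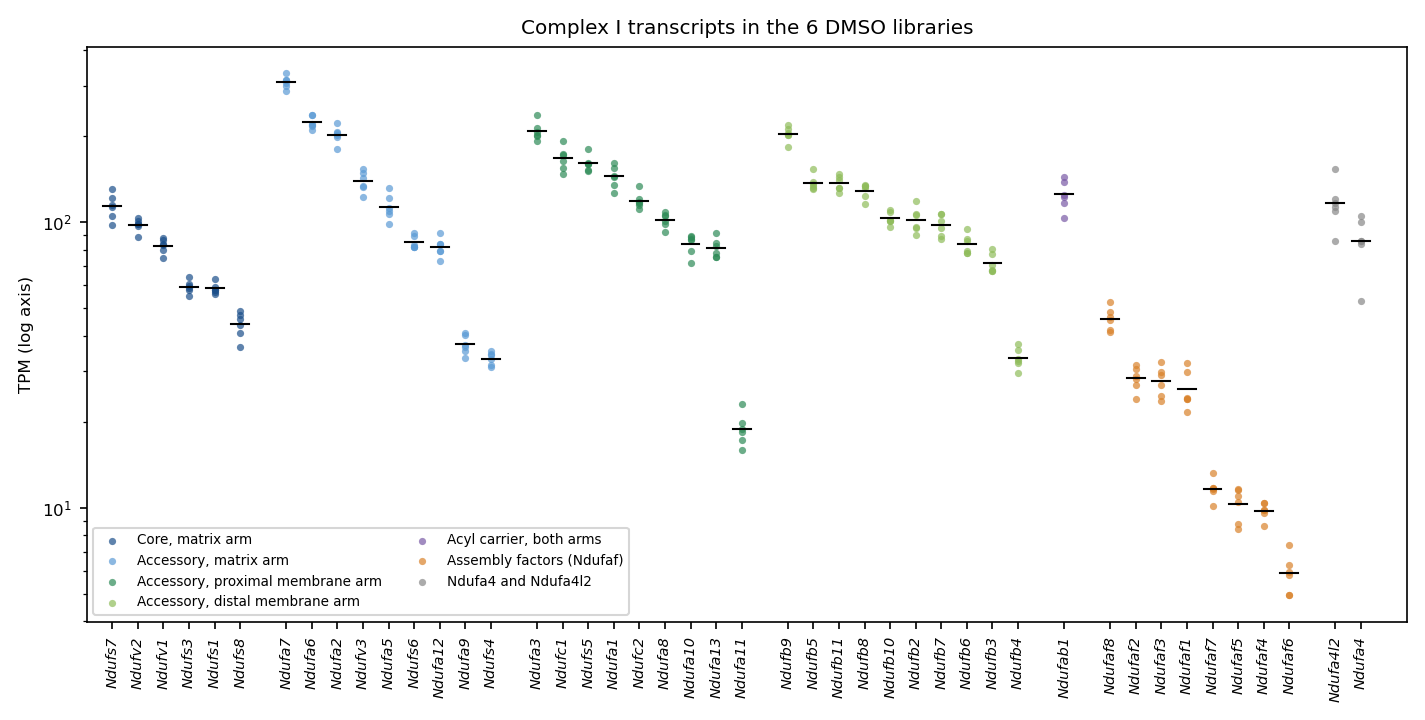
TPM (log axis) of each of 45 of the 46 genes in the 6 DMSO libraries, grouped by place in the complex, with a black line at each mean. The subunit with the lowest mean is Ndufa11 at 18.9 TPM, and the assembly factor with the highest is Ndufaf8 at 45.9 TPM.

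Each compound was compared with DMSO by limma on log2(TPM + 1), and a change was called at an adjusted p below 0.05 over all tested genes. Of the 368 values for 46 genes in 8 compounds, 90 were called, and nearly all were small. Of the 76 calls on subunits, 6 were past 0.5 on the log2 scale, and only 2 of the 90 reached a 2-fold change, both of Ndufa4l2. The summed TPM of the 36 subunits was 3940 to 4492 in DMSO, 3735 to 3840 in Cardamonin, 3740 to 3828 in AEG 3482 and 3619 to 3882 in Podofilox, and 4067 to 4592 in the other five compounds. The sums of Cardamonin, AEG 3482 and Podofilox thus lay below every DMSO library, while those of the other compounds overlapped DMSO. All 8 comparisons share the 6 DMSO libraries.

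**Figure D2:**
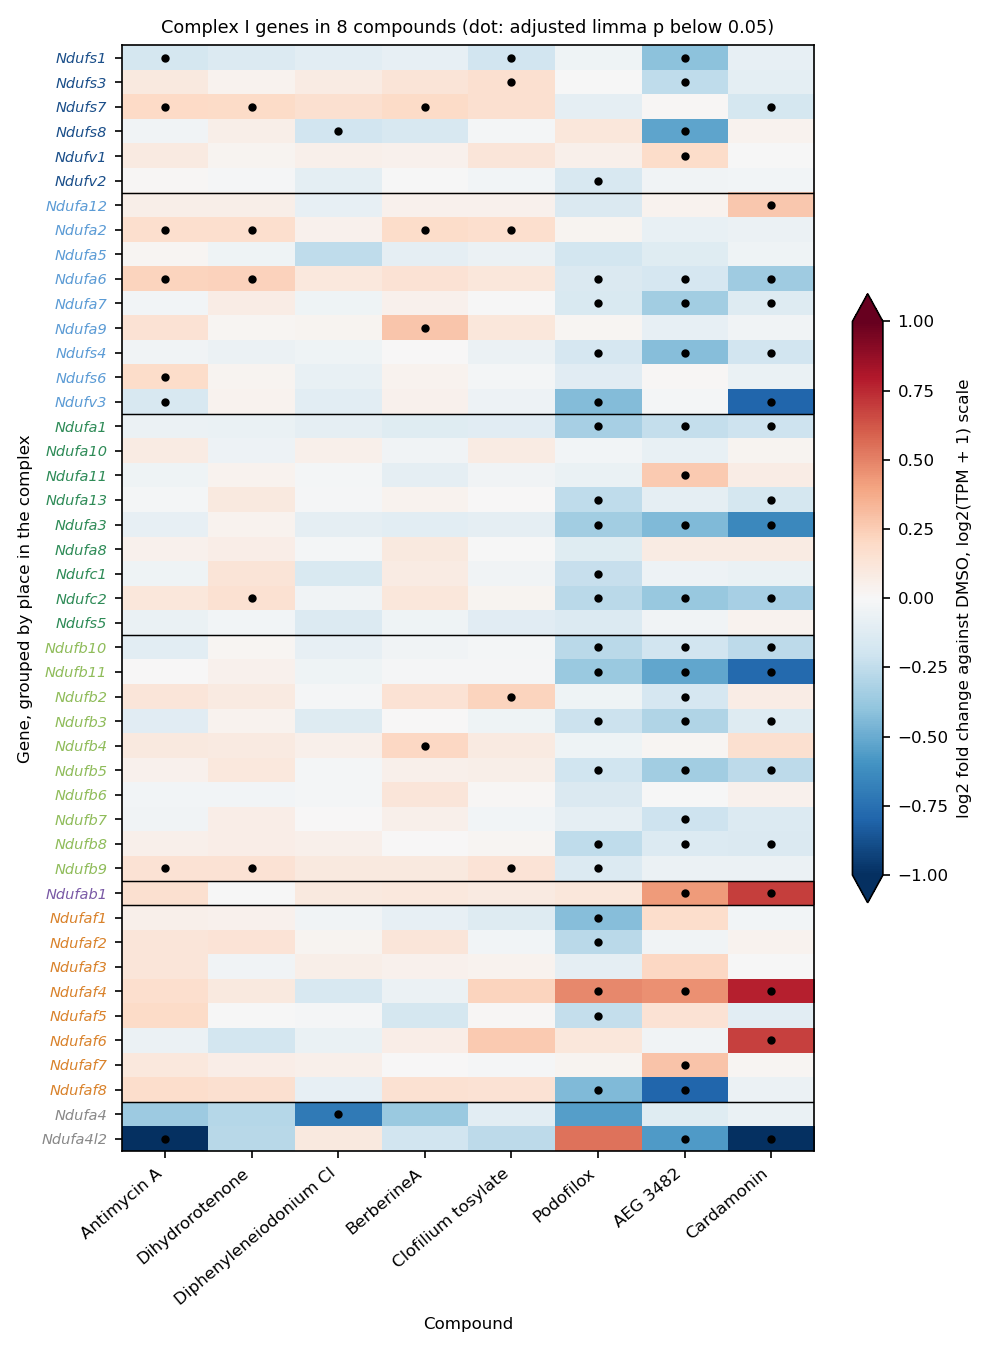
log2 fold change against DMSO on the log2(TPM + 1) scale (colour, limited to -1 and 1) for 45 of the 46 genes (rows, in blocks from the core matrix arm at the top through accessory matrix, proximal and distal membrane arms, Ndufab1 and the assembly factors to Ndufa4 and Ndufa4l2) in 8 compounds (columns). Dots mark an adjusted limma p below 0.05, and the columns of Podofilox, AEG 3482 and Cardamonin hold 21, 23 and 19 of them.

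Cardamonin lowered 15 of 36 subunits and raised the acyl carrier Ndufab1, the subunit Ndufa12 and the assembly factors Ndufaf4 and Ndufaf6. It changed 20 of the 46 genes, 4 higher and 16 lower, where 70.3% of all tested genes were called, 37.3% higher and 33.0% lower. Among subunits 2 of 36 were higher and 15 lower, so 47.2% were called, below the share of all genes. Their median log2 change was -0.08 against 0.03 over all genes. Over the 12 alternatives other than left-out libraries, the subunit median ran from -0.19 to -0.07. The split over all 46 genes, 4 higher and 16 lower as deposited, was 4 higher and 18 lower under median-ratio scaling. After quantile normalization it was 3 higher and 24 lower. Lower subunits were found in each accessory class and the core: 2 of 7 core, 4 of 9 accessory matrix-arm, 4 of 9 proximal and 5 of 10 distal membrane-arm subunits. The largest fall among subunits was that of Ndufv3, an accessory subunit of the NADH-oxidising module. Its 3 Cardamonin libraries held 80.6, 80.4 and 77.9 TPM and its DMSO libraries 123 to 153 (median 138) TPM, a log2 change of -0.79 (SE 0.057, adjusted limma p 2.99e-12). Ndufb11, an X-linked subunit of the distal membrane arm, held 80.1, 85.7 and 72.6 TPM against 127 to 147 (median 136) TPM in DMSO, a log2 change of -0.78 (SE 0.046, adjusted p 5.7e-14). All treated libraries of both genes lay below all DMSO libraries.

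Further subunits fell by less in Cardamonin. Ndufa3, a small single-span subunit of the proximal membrane arm, changed by -0.64 on the log2 scale, from 191 to 236 (median 204) TPM in DMSO to 137, 134 and 127 TPM. Ndufa6, an LYR-motif protein that binds the acyl carrier in the matrix arm, changed by -0.36, with 171, 174 and 178 TPM against 211 to 237 (median 219) TPM in DMSO. Neither gene had a treated library within the DMSO range. Ndufab1, the mitochondrial acyl carrier protein, which sits in both arms and also serves lipoic acid and iron-sulfur cluster synthesis, moved the other way. Its Cardamonin libraries held 196, 219 and 188 TPM and its DMSO libraries 103 to 144 (median 123) TPM, a log2 change of 0.69 (SE 0.078, adjusted p 1.65e-08). The other higher subunit was Ndufa12, at 0.27. Its call was lost under at least 1 scaling and also without Cardamonin replicate 3 (0.17, adjusted p 0.112). Of the 20 calls, 13 kept their side of the threshold under every alternative setting and left-out library, 3 higher and 10 lower.

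Among the assembly factors, Cardamonin raised 2 of 8 and lowered none (2 of 8 had an unadjusted p below 0.05). The share called was thus 25%, below the 70.3% of all tested genes (37.3% higher and 33.0% lower). Ndufaf4, which acts with Ndufaf3 on the early matrix-arm intermediate, held 17.4, 17 and 18 TPM in Cardamonin against 8.59 to 10.4 (median 9.84) TPM in DMSO, a log2 change of 0.78 (SE 0.082, adjusted p 4.62e-09). Ndufaf6, a protein needed for early assembly around mitochondrially encoded ND1, held 13.3, 8.27 and 9.04 TPM against 4.92 to 7.4 (median 5.87) TPM, a log2 change of 0.69 (adjusted p 0.000324). The first Cardamonin library was the highest for Ndufaf6, and without it the change was 0.50 (adjusted p 0.0103). Both genes had every treated library above every DMSO library. Ndufaf3, the partner of Ndufaf4, was not called, with a mean of 27.5 TPM against 27.7 TPM in DMSO. Ndufaf5 (9.47 against 10.3 TPM) and Ndufaf7 (11.8 against 11.6 TPM) were not called either.

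**Figure D3:**
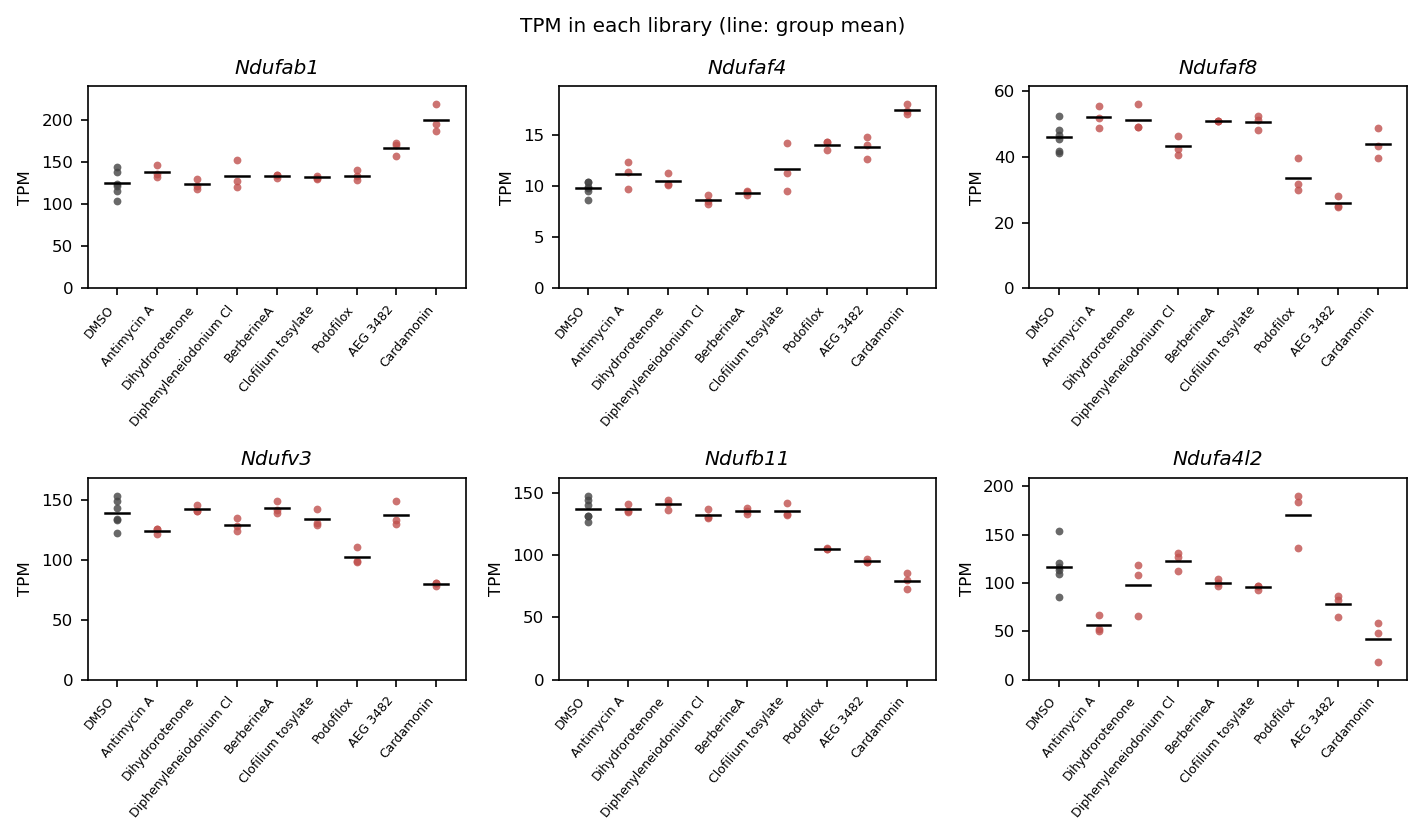
TPM in every library for 6 genes (panels) by group (x axis), with a black line at the group mean and y axes from 0. Ndufab1 and Ndufaf4 lie highest in Cardamonin, Ndufaf8 lowest in AEG 3482, Ndufv3 and Ndufb11 lowest in Cardamonin, and Ndufa4l2 runs from 18.7 TPM in Cardamonin to 189.9 TPM in Podofilox.

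AEG 3482 lowered many subunits, iron-sulfur subunits of the core among them. It changed 24 of 46 genes, 5 higher and 19 lower, where 68.1% of all tested genes were called, 41.3% higher and 26.8% lower. Of the subunits 3 were higher and 17 lower, with a median of -0.10 against 0.10 over all genes. The all-gene median moved to -0.01 under median-ratio scaling. The subunit median also depended on the setting, from -0.27 to -0.10 over the 12 alternatives other than left-out libraries. The split over all 46 genes, 5 higher and 19 lower as deposited, was 3 higher and 25 lower under that scaling and 3 higher and 31 lower after quantile normalization. By place, 4 of 7 core, 3 of 9 accessory matrix-arm, 3 of 9 proximal and 7 of 10 distal membrane-arm subunits were lower. Ndufs8, a core subunit that carries iron-sulfur clusters, held 28.5, 32.4 and 29.3 TPM against 36.6 to 48.7 (median 44.7) TPM in DMSO, a log2 change of -0.52 (SE 0.066, adjusted limma p 1.23e-07). Ndufs1, the largest core subunit and carrier of several clusters, held 45.9, 41.4 and 44.4 TPM against 55.9 to 63.3 (median 58) TPM, a change of -0.41. Ndufs4, an accessory matrix-arm subunit whose loss causes Leigh-like disease in mice, held 25.8, 22.5 and 25.2 TPM against 31.1 to 35.2 (median 33.6) TPM, a change of -0.43. Each of the 3 genes was lower in every AEG 3482 library than in any DMSO library.

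In the membrane arm, AEG 3482 lowered Ndufb11 to 96.4, 94.4 and 94.4 TPM, a log2 change of -0.52 (adjusted p 2.62e-10), and Ndufa3 to 155, 139 and 163 TPM, a change of -0.44. The matrix-arm subunit Ndufa7 fell to 239, 245 and 242 TPM, a change of -0.35, and the membrane-arm subunit Ndufc2 to 85.5, 95.9 and 91.9 TPM, a change of -0.38. Ndufab1 rose to 174, 158 and 170.3 TPM, a change of 0.43 (SE 0.078, adjusted p 2.95e-05). The other higher subunits were Ndufv1, the flavin-binding core subunit (0.18), and Ndufa11 (0.26). Both of these calls were lost under at least 1 scaling, and that of Ndufa11 also without AEG 3482 replicate 3 (0.19, adjusted p 0.0673). Of the 24 calls, 18 kept their side of the threshold under every alternative, 3 higher and 15 lower.

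Of the 8 assembly factors, 2 were higher and 1 lower in AEG 3482. The share called was thus 37.5%, below the 68.1% of all tested genes (41.3% higher and 26.8% lower). Ndufaf8, a partner that stabilises the hydroxylase Ndufaf5, had the largest fall of the 8. It held 24.8, 24.9 and 28.2 TPM against 41.1 to 52.4 (median 45.9) TPM in DMSO, a log2 change of -0.80 (SE 0.081, adjusted p 3.18e-09). Ndufaf5 itself changed by 0.14 and was not called (adjusted p 0.164). Ndufaf4 held 12.6, 14.8 and 14 TPM against 8.59 to 10.4 (median 9.84) TPM, a change of 0.46 (adjusted p 2.37e-05), and Ndufaf7, a methyltransferase, held 14.7, 14.8 and 13.7 TPM against 10.2 to 13.2 (median 11.7) TPM, a change of 0.29. None of the 3 genes had an AEG 3482 library within the DMSO range.

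Ndufaf4 and Ndufaf8 had the largest rise and the largest fall of any assembly factor, and a stretch of each promoter is shown for that reason. The sequences are from RefSeq (GRCm38.p6).
Ndufaf4: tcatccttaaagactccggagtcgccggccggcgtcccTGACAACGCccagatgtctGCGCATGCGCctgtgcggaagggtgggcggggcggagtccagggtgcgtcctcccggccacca
Ndufaf8: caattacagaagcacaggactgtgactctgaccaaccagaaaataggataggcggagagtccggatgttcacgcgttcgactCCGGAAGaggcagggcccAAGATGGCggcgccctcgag
The Ndufaf4 stretch is chr4:24897913-24898032 on the plus strand, just before the start of a gene that M21 places at chr4:24898083-24905001, and its capitals mark first TGACNNNGC (the letters of an antioxidant response element, ARE) and then the palindromic NRF1 motif. The Ndufaf8 stretch is chr11:120098844-120098963 on the plus strand, spanning the start, and its capitals mark CCGGAAG (GABPA) and AAGATGGC (YY1). Both strands were searched from 250 bases before to 50 after the start, and 40 of the 46 genes matched, with 42 promoter windows among 32851 of all genes. The NRF1 motif was in only 3 of these 42 windows (7.14%) and in 0.971% of all windows. A looser form of it with 1 free base, which includes it, was in 10 (23.8%) and 4.60%. AAGATGGC was in 8 (19.0%) and 2.75%, CCGGAAG in 6 (14.3%) and 8.86%, and TGACNNNGC in 10 (23.8%) and 12.4%. The median GC content was 59.3% in the complex I windows and 52.7% in all windows. A match of letters is a description and shows no binding.

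Set directly against AEG 3482, Cardamonin differed at 22 of 46 genes, 12 higher and 10 lower, where 55.3% of all tested genes differed, 22.6% higher and 32.7% lower. The split became 12 higher and 5 lower under each of median-ratio scaling, quantile normalization and rescaling without the 20 most abundant genes. Ndufv3 was the clearest subunit lower in Cardamonin, with a log2 difference of -0.77 (SE 0.066, adjusted limma p 2.91e-10); its AEG 3482 libraries held 133, 129 and 149 TPM and overlapped DMSO. Ndufs8 was higher in Cardamonin by 0.56 (SE 0.076, adjusted p 8e-07), with 44.8, 43.4 and 45.7 TPM there, within the DMSO range. Other subunits with a difference kept in every alternative included Ndufs1 (0.32), Ndufa7 (0.22) and Ndufb11 (-0.26). Among assembly factors, Ndufaf8 was higher in Cardamonin by 0.73 (adjusted p 2.69e-07), Ndufaf6 by 0.72 (adjusted p 0.00123) and Ndufaf4 by 0.32 (adjusted p 0.00547). Of the 22 differences, 9 were kept in every alternative.

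Podofilox lowered subunits of each class except the acyl carrier, by small amounts. It changed 22 of 46 genes, 1 higher and 21 lower, where 46.2% of all tested genes were called, 26.2% higher and 20% lower. None of the 36 subunits was higher and 17 were lower (20 had an unadjusted p below 0.05 in either direction), with a median of -0.14 against 0.04 over all genes. By place, 2 of 7 core, 4 of 9 accessory matrix-arm, 5 of 9 proximal and 6 of 10 distal membrane-arm subunits were lower. Ndufv3 held 98.5, 110.2 and 98.2 TPM against 123 to 153 (median 138) TPM in DMSO, a log2 change of -0.44 (SE 0.057, adjusted limma p 5.88e-07). Ndufb11 held 105, 105 and 105 TPM, a change of -0.37 (adjusted p 2.33e-07), and Ndufa3 held 159, 173 and 157 TPM, a change of -0.35. Ndufa1, an X-linked subunit at the base of the membrane arm, held 108, 121 and 113 TPM against 127 to 161 (median 144) TPM, a change of -0.33. All 4 were below the DMSO range in every Podofilox library. Of the 22 calls, 14 were kept under every alternative.

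Among assembly factors, Podofilox raised 1 of 8 and lowered 4. The share called was thus 62.5%, where 46.2% of all tested genes were called, 26.2% higher and 20% lower. Ndufaf4 was the higher one, with 14.2, 13.5 and 14.3 TPM against 8.59 to 10.4 (median 9.84) TPM in DMSO, a log2 change of 0.48 (SE 0.082, adjusted p 2.77e-05). Ndufaf8 held 31.8, 39.5 and 29.8 TPM, a change of -0.44 (adjusted p 6.95e-05), with every library below DMSO. Ndufaf2, a paralogue of Ndufa12 that occupies its place until the NADH module is added, held 23.3, 22.7 and 23.6 TPM against 24 to 31.5 (median 28.5) TPM, a change of -0.27. Of its stretches of 31 bases, 65.1% also occur in other genes, as given below. Ndufaf1, a membrane-arm assembly protein, changed by -0.42; without Podofilox replicate 1 or 2 its call was lost (adjusted p 0.0589 and 0.0750). The call on Ndufaf5 (-0.24) was lost without any of the 3 Podofilox libraries or without DMSO replicate 1, 4 or 6, with adjusted p from 0.0553 to 0.0786.

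Antimycin A changed few complex I genes. It changed 8 of 46, 5 higher and 3 lower, where 37.3% of all tested genes were called, 21.8% higher and 15.5% lower. The 7 subunits called had changes of at most 0.23 on the log2 scale. The split turned to 1 higher and 3 lower under median-ratio scaling and to 1 higher and 4 lower under quantile normalization or without the 20 most abundant genes. Ndufa6 was the subunit kept in every alternative, with 254, 275 and 255 TPM against 211 to 237 (median 219) TPM in DMSO, a log2 change of 0.23 (SE 0.058, adjusted limma p 0.00312). Ndufs1 held 53.1, 51.2 and 51 TPM against 55.9 to 63.3 (median 58) TPM, a change of -0.17 (adjusted p 0.00453), with no overlap. Ndufs6, a zinc-binding subunit of the matrix arm, held 91.5, 101 and 96.1 TPM against 81.5 to 91.1 (median 82.4) TPM, a change of 0.18 (adjusted p 0.0299). The Ndufs6 call was lost without Antimycin A replicate 2 (adjusted p 0.149) or 3 (0.0738), or without DMSO replicate 3 (0.0521), 4 (0.0504) or 5 (0.0535). None of the 8 assembly factors was called, and 3 had an unadjusted p below 0.05. The count of 8 was 5 without Antimycin A replicate 1, 4 without replicate 2, and 13 without DMSO replicate 6.

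Dihydrorotenone changed 5 of 46 genes, all subunits and all higher, where 14.4% of all tested genes were called, 4.95% higher and 9.43% lower. Ndufa6 was again the largest, with 285, 265 and 238 TPM against 211 to 237 (median 219) TPM in DMSO, a log2 change of 0.23 (SE 0.058, adjusted limma p 0.00774). All 3 libraries lay above DMSO, the third only just, and without Dihydrorotenone replicate 1, the highest and the library with the other donor age, the change was 0.17 (adjusted p 0.097). The other 4 were Ndufs7, the core subunit next to the ubiquinone site (0.19), and the accessory subunits Ndufa2 (0.17), Ndufc2 (0.15) and Ndufb9 (0.15). No call held under every left-out library: the count was 0 without Dihydrorotenone replicate 1, 2 without replicate 2 or 3 or DMSO replicate 4, and 1 without DMSO replicate 3 or 5. Rescaling without the 20 most abundant genes gave 1 higher and 1 lower. No assembly factor had an unadjusted p below 0.05, by limma.

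Diphenyleneiodonium Cl changed 2 of 46 genes, both lower, where 25.7% of all tested genes were called, 14% higher and 11.7% lower. These were Ndufa4, described below with Ndufa4l2, and the core subunit Ndufs8. Ndufs8 held 38.1, 36.1 and 40.1 TPM against 36.6 to 48.7 (median 44.7) TPM in DMSO, a log2 change of -0.19 (adjusted limma p 0.0336), and the groups overlapped. Its call was lost without Diphenyleneiodonium Cl replicate 1 or 2 or DMSO replicate 2, 5 or 6, with adjusted p from 0.0627 to 0.170. No member kept its call throughout, and the count was 0 without Diphenyleneiodonium Cl replicate 1 or DMSO replicate 5 and 1 without Diphenyleneiodonium Cl replicate 2 or 3. Rescaling over nuclear protein-coding genes gave 1 higher and 2 lower. No assembly factor had an unadjusted p below 0.05.

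Direct contrasts among these respiratory compounds found few differences. Antimycin A against Dihydrorotenone gave 1 of 46 genes, where 15.5% of all tested genes differed and 3.91% were lower: Ndufv3, with a log2 difference of -0.19 (adjusted limma p 0.0448), a call lost without any 1 of the 6 libraries (adjusted p from 0.0734 to 0.137). Antimycin A against Diphenyleneiodonium Cl gave 3 of 46, 2 higher and 1 lower, where 6.04% differed, 3.65% higher and 2.39% lower. They were Ndufs6 (0.26), Ndufaf4 (0.33) and Ndufa4l2 (-1.11). The split was 0 higher and 1 lower under median-ratio scaling, quantile normalization or rescaling over nuclear protein-coding genes. The count of 3 was 1 without Antimycin A replicate 1 or Diphenyleneiodonium Cl replicate 1, 0 without Antimycin A replicate 2 or Diphenyleneiodonium Cl replicate 3, and 2 without either of the remaining libraries.

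BerberineA changed 4 of 46 genes, all subunits and higher, where 21.7% of all tested genes were called, 12.6% higher and 9.16% lower. Ndufa9, an accessory subunit that binds NADPH near the ubiquinone site, held 48.4, 44.2 and 43.5 TPM against 33.4 to 40.8 (median 36.8) TPM in DMSO, a log2 change of 0.28 (SE 0.069, adjusted limma p 0.00399). Ndufb4, a subunit of the distal membrane arm, held 37.6, 40.2 and 37.9 TPM against 29.6 to 37.4 (median 32.8) TPM, a change of 0.21 (adjusted p 0.0423). All BerberineA libraries of both genes lay above DMSO, but 19.1% of the Ndufb4 31-mers (stretches of 31 bases) also occur in the pseudogene Ndufb4c, listed at a mean of 172 TPM over all libraries. With the 2 summed, the change was -0.04 (adjusted p 0.638). The Ndufb4 call was also lost without any of the 3 BerberineA libraries or without DMSO replicate 2, 3, 4 or 5, with adjusted p from 0.0617 to 0.170. The other calls were Ndufa2 (0.18) and Ndufs7 (0.19), and the count of 4 was 1 without BerberineA replicate 2, 2 without BerberineA replicate 1 or DMSO replicate 4 or 5, and 7 without DMSO replicate 6. None of the 4 calls was kept under every alternative, and that on Ndufa9 was the one kept under each left-out library and each scaling. No assembly factor had an unadjusted p below 0.05.

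Clofilium tosylate changed 5 of 46 genes, all subunits, 4 higher and 1 lower, where 23.4% of all tested genes were called, 10.9% higher and 12.5% lower. Median-ratio scaling gave 2 higher and 1 lower. Ndufs1 was the lower one, with 52.2, 50.3 and 51.1 TPM against 55.9 to 63.3 (median 58) TPM in DMSO, a log2 change of -0.19 (SE 0.047, adjusted limma p 0.00417). Ndufs3, a core subunit of the arm that leads to ubiquinone, held 64.9, 67.1 and 67.5 TPM against 55.1 to 64 (median 59.1) TPM, a change of 0.16; without Clofilium tosylate replicate 2 or 3 the call was lost (adjusted p 0.0574 and 0.0618). Ndufa2, a thioredoxin-fold subunit of the matrix arm, held 230.3, 223 and 226 TPM against 180.2 to 221 (median 203) TPM, a change of 0.17. Its call was lost without any 1 Clofilium tosylate library or DMSO replicate 3, with adjusted p from 0.0582 to 0.0909. All 3 genes were outside the DMSO range in every treated library. The count of 5 was 2, 3 and 1 without Clofilium tosylate replicates 1, 2 and 3, and 3 without DMSO replicate 3. None of the 5 calls was kept under every alternative, and that on Ndufs1 was the one kept under each left-out library and each scaling. None of the 8 assembly factors was called, and 1 had an unadjusted p below 0.05.

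Some subunits were called in opposite directions in different compounds. Ndufa6 had the widest span, from -0.36 in Cardamonin to 0.23 in Dihydrorotenone, with the values by library given above. In AEG 3482 Ndufa6 was at 205, 186 and 205 TPM, all below DMSO, a change of -0.17. That call was lost without AEG 3482 replicate 2 (adjusted limma p 0.115). In Podofilox it was at 201, 218 and 188 TPM, overlapping DMSO, a change of -0.14. This call was lost under at least 1 scaling, and without Podofilox replicate 1 or 3 or DMSO replicate 2, 4 or 6 (adjusted p from 0.0529 to 0.283). Ndufc2 was at 89.1, 94.4 and 98.9 TPM in Cardamonin, 85.5, 95.9 and 91.9 in AEG 3482 and 102, 97.9 and 94.5 in Podofilox, all below its DMSO range of 111 to 134 (median 117) TPM. In Dihydrorotenone Ndufc2 was at 135, 131 and 129 TPM, overlapping DMSO, with a call (0.15) that 7 of 9 left-out libraries ended (highest adjusted p 0.162, without Dihydrorotenone replicate 1). Ndufs3 was at 51.1, 48.2 and 49.5 TPM in AEG 3482, below its DMSO range of 55.1 to 64 (median 59.1) TPM, a log2 change of -0.25 (adjusted limma p 5.08e-05), and above it in Clofilium tosylate. Ndufb2, a distal membrane-arm subunit, changed by 0.22 in Clofilium tosylate and -0.17 in AEG 3482, and both groups overlapped DMSO; the first call was lost without Clofilium tosylate replicate 1 (adjusted p 0.0726) or 3 (0.0674), and the second without AEG 3482 replicate 1 (0.151) or DMSO replicate 1 (0.0509), 2 (0.0530) or 6 (0.0711). Ndufs7 changed by 0.20 in Antimycin A and -0.17 in Cardamonin, also with overlap; these calls were lost without Antimycin A replicate 1 (adjusted p 0.0802) or 2 (0.0728), and without Cardamonin replicate 1 (0.0578) or 2 (0.117) or DMSO replicate 6 (0.0503).

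Ndufa4 and Ndufa4l2 are not counted among the subunits. Ndufa4 is now assigned to cytochrome c oxidase, and Ndufa4l2 is its paralogue, known as a target of hypoxia-inducible factor. Ndufa4l2 was at 85.5 to 153 (median 115) TPM in DMSO, 48.4, 58.8 and 18.7 TPM in Cardamonin and 52.4, 50.4 and 67.2 TPM in Antimycin A, and both treated groups lay wholly below DMSO. The log2 changes were -1.58 (SE 0.23, adjusted limma p 1.13e-06) and -1.02 (SE 0.23, adjusted p 0.000975). The third Cardamonin library was far below the others, and without it the change was -1.09. In AEG 3482 Ndufa4l2 was at 86.5, 82.2 and 64.8 TPM, a change of -0.57 (adjusted p 0.0328), which was not called without AEG 3482 replicate 2 (adjusted p 0.0531) or 3 (0.155) or DMSO replicate 6 (0.0710). In Podofilox it was at 184, 189.9 and 136 TPM, a change of 0.55 that missed the threshold (adjusted p 0.0554). Directly, Ndufa4l2 was lower in Cardamonin than in AEG 3482, with a log2 difference of -1.01 (adjusted p 0.00216), and without Cardamonin replicate 3 that difference was -0.52 (adjusted p 0.0351). Ndufa4 was called only in Diphenyleneiodonium Cl, with 47.1, 72.3 and 38.7 TPM against 53 to 105 (median 85.8) TPM in DMSO, a change of -0.71 (adjusted p 0.0296). The groups overlapped, and the call was lost without Diphenyleneiodonium Cl replicate 1 (adjusted p 0.104) or 3 (0.201) or DMSO replicate 4 (0.0521) or 5 (0.0597).

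The 7 core subunits encoded in mitochondrial DNA were read beside the nuclear ones. In Antimycin A 2 were higher and 5 lower, with mt-Nd4 at 1561, 1591 and 1591 TPM against 2638 to 3527 TPM in DMSO, a log2 change of -0.98 (SE 0.081, adjusted limma p 5.09e-10), where 37.3% of all tested genes were called. Of the 7, 5 were higher in Dihydrorotenone (14.4% of all genes called), 4 higher in BerberineA (21.7%), 1 higher each in Diphenyleneiodonium Cl (25.7%) and Clofilium tosylate (23.4%), and 3 lower in AEG 3482 (68.1%). In Cardamonin (70.3%) and Podofilox (46.2%) 0 of 7 were called by limma, and 0 had an unadjusted p below 0.05. Directly, mt-Nd4 was lower in Antimycin A than in Dihydrorotenone, with a log2 difference of -1.23 (adjusted p 1.7e-09).

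**Figure D4:**
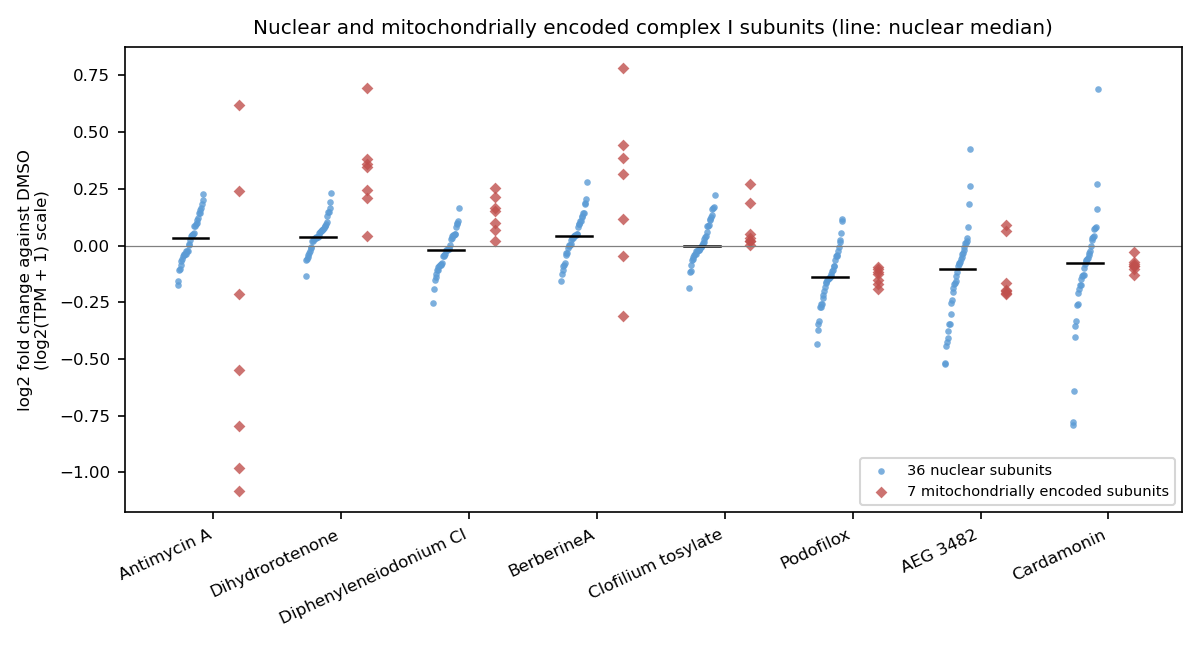
log2 fold change against DMSO on the log2(TPM + 1) scale for the 36 nuclear subunits (blue points, black line at the median) and the 7 mitochondrially encoded subunits (red diamonds) in 8 compounds. The nuclear subunits spread most in Cardamonin, from -0.79 to 0.69, and the mitochondrially encoded ones in Antimycin A, from -1.08 to 0.62.

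A list of 13 assembly proteins without an Nduf symbol matched 12 genes, all of which passed the filter. Cardamonin raised 5 and lowered 3 of the 12, where 70.3% of all tested genes were called, AEG 3482 raised 4 and lowered 1 (68.1%), and Podofilox raised 2 and lowered 2 (46.2%). These shares lie near or below those of all genes, and 0 to 3 of the 12 were called in each other compound. Timmdc1, a membrane-arm assembly factor, held 33.3, 31.6 and 30.9 TPM in Cardamonin and 30.6, 31.7 and 34.1 TPM in AEG 3482 against 17.7 to 19.7 TPM in DMSO, log2 changes of 0.73 and 0.74 (adjusted limma p 4.15e-14 and 6.04e-14). Chchd4, the import receptor of the intermembrane space through which several membrane-arm subunits enter, held 7.34, 6.38 and 7.32 TPM in Cardamonin against 3.64 to 3.99 TPM, a change of 0.72. Tmem126b, a partner of Ndufaf1 in the membrane-arm assembly complex, held 13.3, 12.8 and 13 TPM in Podofilox against 17.2 to 21.2 TPM, a change of -0.55.

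Of 10 listed regulators of nuclear respiratory genes, 8 passed the filter, and Ppargc1a and Ppargc1b did not. AEG 3482 raised 5 and lowered 1 of the 8, where 68.1% of all tested genes were called, 41.3% higher and 26.8% lower. Cardamonin raised 5 and lowered 0, where 70.3% were called, 37.3% higher and 33.0% lower. Both totals lie near the share of all genes called in either direction, and both splits lean more to higher, on only 8 genes. Esrra, a nuclear receptor of respiratory genes, held 41.2, 43.4 and 39.2 TPM in AEG 3482 against 17.5 to 21.6 TPM in DMSO, a log2 change of 1.01 (adjusted limma p 3.93e-10). Gabpa, the DNA-binding subunit of the factor GABP, held 20.7, 17.3 and 19.6 TPM against 34.8 to 46.4 TPM, a change of -1.02 (adjusted p 9.37e-11), while its partner Gabpb1 changed by 0.85. Gabpa also lay below every DMSO library in Antimycin A (26.3 to 31.6 TPM), Clofilium tosylate (31.8 to 33.8) and BerberineA (31.8 to 33.7). The remaining compounds overlapped DMSO. Directly, Gabpa was higher in Cardamonin than in AEG 3482 by 1.02 on the log2 scale (adjusted p 2.95e-09).

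Several members share sequence or genome positions with other genes, and the authors' counting could divide reads among them. Of the 46, 22 overlap another gene of the annotation, 18 of them a gene on the other strand, and whether the counting used strand is not given in the sources used here. More than 20% of the 31-mers of 7 members, and under 5% of those of 27, also occur in other genes. The share was highest for Ndufaf2, at 65.1%. Ndufaf2 shares these with B230220B15Rik, a lincRNA that overlaps it on the other strand. That lincRNA has no listed TPM, so its part in the Ndufaf2 values was not tested. Ndufab1 shares 5.93% with the processed pseudogene Gm4459, itself listed at a mean of 62.1 TPM and called higher in Cardamonin (0.57) and AEG 3482 (0.59). Of the Ndufb11 31-mers, 29.0% also occur in other genes. It shares 19.1% with the pseudogene Gm6444, listed at a mean of 0.252 TPM, and 9.91% with Rbm10, a gene that overlaps it on the other strand and was listed at a mean of 19.3 TPM. Ndufa12 shares 20.2% with Gm15920, at a mean of 49.7 TPM.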

How the data were processed

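Total RNA from 30 libraries was ribodepleted and sequenced on a HiSeq4000, per the labels' protocols. The deposited values are TPM per gene, made by the authors with kallisto 0.43.1 per the submitters' processing notes, which name the build mm10, and gathered with tximport per the series text. Strandedness and the transcript index are not given in the sources used here. The series text names 5 DMSO replicates, while 6 are labelled and were used.

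Ensembl identifiers were matched to GENCODE M21 (98.8% of 29861). Genes at 1 TPM or more in at least 3 libraries (13644) were analysed as log2(TPM + 1), so fold changes of low genes are understated, with limma 3.58.1 in R 4.3.3. One mean per group was fitted over all libraries, with a trended empirical Bayes spread and Benjamini-Hochberg adjustment over all tested genes, and the fit was tested on simulated data. The 11 comparisons were 8 against DMSO and 3 between compounds.

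Values by library were to be given for the 2 largest called rises and the 2 largest called falls per compound whose libraries all lay outside the DMSO range, and for up to 5 members changed in both directions. Others that are named were chosen to show a class or after their values were seen. The members and lists were chosen with earlier results of these data known. Alternatives were other pseudocounts, filters, scalings and fits, each library left out, and 2 chosen after seeing the data: members summed with related pseudogenes, and library weights. One member enters the counts and fits but its own values are not reported here.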

Additional observations from a re-analysis of the deposited data

Results flagged for a closer look

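Of the 46 genes, each with 6 DMSO libraries, 2 had 1 DMSO library far from the others, and chance alone flags about 1 in 20 such groups. Ndufb5, a distal membrane-arm subunit, was at 152.7 TPM in DMSO replicate 6 and at 130.6 to 137.7 TPM in the other 5. Ndufs5, a proximal membrane-arm subunit, was at 179.3 TPM in DMSO replicate 6 and at 151.3 to 160.7 TPM in the other 5.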

How the results depend on the processing

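The counts of complex I genes changed by Cardamonin, AEG 3482 and Podofilox, and between Cardamonin and AEG 3482, stayed within 1.5 times under every alternative run. The smaller counts did not. For Antimycin A (8) the count was 4 with median-ratio scaling, 5 after quantile normalization, 5 without the 20 most abundant genes and 4 with only the compared groups fitted. For Dihydrorotenone (5) it was 1 with no filter, 3 with median-ratio scaling, 2 without the 20 most abundant genes and 0 with only the compared groups. For Diphenyleneiodonium Cl (2) it was 0 with no filter, 4 without the 20 most abundant genes, 0 with only the compared groups and 4 with library weights. For BerberineA (4) it was 2 with no filter, 1 with median-ratio scaling, 2 without the 20 most abundant genes, 1 with only the compared groups and 10 with library weights. For Clofilium tosylate (5) it was 3 with median-ratio scaling and 2 with only the compared groups. For Antimycin A against Dihydrorotenone (1) it was 0 with no filter, 2 with a filter at a mean of 5 TPM, median-ratio scaling, quantile normalization, nuclear protein-coding scaling or summed pseudogenes, and 3 with library weights. For Antimycin A against Diphenyleneiodonium Cl (3) it was 1 with no filter, median-ratio scaling, quantile normalization, nuclear protein-coding scaling or only the compared groups. The cause of these shifts was not tested.

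With 1 library left out, the counts ranged from 4 to 13 for Antimycin A, 0 to 5 for Dihydrorotenone, 0 to 2 for Diphenyleneiodonium Cl, 16 to 21 for Cardamonin, 1 to 7 for BerberineA, 1 to 6 for Clofilium tosylate, 21 to 24 for AEG 3482, 15 to 24 for Podofilox, 15 to 20 for Cardamonin against AEG 3482, 0 to 1 for Antimycin A against Dihydrorotenone and 0 to 2 for Antimycin A against Diphenyleneiodonium Cl.

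Deviations of same-numbered libraries from their group means correlated at -0.107 to 0.151 (mean 0.0073) over 108 pairs. Pairs of different number gave -0.161 to 0.135 (mean -0.0027) over 288 pairs. No pairing by number was seen. Deviations from a group mean cancel within the group, which holds such averages low, so pairing is not excluded. With the replicate block the counts were 7 for Antimycin A, 5 for Dihydrorotenone, 2 for Diphenyleneiodonium Cl, 20 for Cardamonin, 3 for BerberineA, 5 for Clofilium tosylate, 21 for AEG 3482, 18 for Podofilox, 20 for Cardamonin against AEG 3482, 1 for Antimycin A against Dihydrorotenone and 1 for Antimycin A against Diphenyleneiodonium Cl. With it the calls on Ndufa9 in BerberineA (0.22, adjusted limma p 0.0516), Ndufs1 in Clofilium tosylate (-0.15, adjusted p 0.0516) and Ndufs1 in Antimycin A (-0.13, adjusted p 0.056) were lost. Over 35 named changes, 639 of 735 alternative values kept direction and side of the threshold, 95 lost the threshold and 1 changed direction: Ndufb4 in BerberineA, at -0.039 when summed with its pseudogene. Of the 90 calls against DMSO, 18 were lost under at least 1 scaling and 0 changed sign. Summing members with genes that share at least 50% of their 31-mers gave no value, since no gene of the table met it. B230220B15Rik, which shares 65.1% with Ndufaf2, is not listed there and could not be summed. Depth is unknown, so counting error behind the low assembly factors cannot be given.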
